A study of Mus musculus with 8 samples.

Results

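The replication-dependent histone genes of the mouse were examined in embryonic stem cells. They were taken as every entry of the deposited expression table whose symbol begins with Hist1h, Hist2h, Hist3h or Hist4h, without names that contain "-ps", which gave 69 genes of 49641 entries. The symbols place 56 of them in the large Hist1 cluster on chromosome 13, 10 in Hist2 on chromosome 3, 2 in Hist3 on chromosome 11 and 1, Hist4h4, on chromosome 6. By protein they are 6 genes for linker histone H1, 20 for H2A, 18 for H2B, 12 for H3 and 13 for H4. GENCODE M21, a gene annotation of the mouse, types Hist1h2aj and Hist1h2al as pseudogenes, and both were kept because the name rule includes them.

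RNA was sequenced from 8 libraries, 2 in each of 4 groups. All carry the label of V6.5, an embryonic stem cell line of the strain background 129/C57BL/6, and all were kept in serum medium with LIF, either on gelatin or on a feeder layer of irradiated embryonic fibroblasts. The WT group is labelled as a control, and its table columns call it a mock transfection. The Dgcr8 KO group lacks Dgcr8, the partner of Drosha in cutting microRNA precursors, and was mock transfected likewise. The miR-294 group is Dgcr8 KO cells given a mimic of miR-294, a microRNA of the miR-290 family, and the siMbnl1/2 group is Dgcr8 KO cells given siRNAs against the splicing factors Mbnl1 and Mbnl2. Mimic and siRNAs were used at 50 nM, 16 hours after plating. The Dgcr8 deletion is thus shared by 3 of the 4 groups. The columns are named after V65 for WT and ES1 for Dgcr8 KO, so a difference between lines and the loss of Dgcr8 cannot be told apart, and the labels do not say whether the knockout line is 1 clone. Nothing states that the 2 libraries of a group came from separate cultures, so p-values measure the spread between these libraries, which may be technical.

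Replication-dependent histone genes supply the proteins that package new DNA during S phase. Their mRNAs differ from nearly all others: most have no intron, and the message is cut just behind a short stem-loop instead of receiving a poly(A) tail. The stem-loop binding protein, Slbp, holds that structure, and the U7 small nuclear ribonucleoprotein with Lsm10 and Lsm11 directs the cut. Some of these genes can also yield a polyadenylated mRNA from a signal further downstream. The labels call the sequenced molecule polyA RNA while the series design calls it total RNA, and a poly(A) selection, where one was made, removes the usual stem-loop form. The values below are therefore levels of what these libraries captured and not of all histone mRNA in the cells.

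The stem-loop is shown first because the 3′ end sets whether a histone message carries a poly(A) tail. The gene models of GENCODE M21 (build GRCm38) were searched on the sense strand for 16 bases matching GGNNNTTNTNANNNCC whose first 6 bases pair with the last 6. Of the 67 members with a model there, 44 held the structure, against 32 of 106644 other transcripts of 300 to 3000 bases, or 0.03%. Capitals mark the stem and loop in the 6 members below, chosen as the most abundant members with the structure or, for Hist3h2ba and Hist1h2ae, as members that fell in Dgcr8 KO cells.
Hist1h4i: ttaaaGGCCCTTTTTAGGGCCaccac
Hist1h1c: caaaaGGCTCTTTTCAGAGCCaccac
Hist1h3c: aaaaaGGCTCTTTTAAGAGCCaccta
Hist3h2a: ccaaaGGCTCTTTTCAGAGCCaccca
Hist3h2ba: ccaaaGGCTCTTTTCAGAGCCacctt
Hist1h2ae: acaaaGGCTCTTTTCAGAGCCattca
The form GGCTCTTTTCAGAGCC occurred in 24 members, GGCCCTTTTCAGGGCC in 7 and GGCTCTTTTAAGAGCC in 6.

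In 16 of the 44 members the model ran on beyond the stem-loop into a hexamer AATAAA or ATTAAA, the usual signal for poly(A) addition. The Hist1h4i model continued for 330 bases and the Hist1h1c model for 840 bases, with the hexamer 15 and 20 bases before the end. The Hist3h2a model continued for 1643 bases, that of Hist3h2ba for 169 and that of Hist1h2ae for 151. Capitals mark the hexamer in these sites, each the last in its model.
Hist1h4i: ttctgtttacATTAAAagtattctat
Hist1h1c: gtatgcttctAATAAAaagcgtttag
Hist3h2a: gtatatgcccAATAAAataagagtac
Hist3h2ba: taatggtattAATAAAtttggttcaa
Hist1h2ae: cagcttctccAATAAAtgggtcaatt
The Hist1h3c model ended 74 bases after its stem-loop without either hexamer.

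Members with a hexamer behind the stem-loop had a median level of 0.979 FPKM over the 8 libraries, and 7 of the 16 reached a mean of 1 FPKM. FPKM counts fragments relative to transcript length and to the depth of the library. The 28 members with a stem-loop and no such hexamer had a median of 0.398 FPKM, with 5 at 1 FPKM or more. The other 23 models held no stem-loop, with a median of 0.229 FPKM and 3 at 1 or more, among them Hist1h2bc and the models of Hist1h4k and Hist1h2af. Several of those models end at or near the coding sequence, so a missing stem-loop says only that these letters are not in the annotated model. The locus in the expression table equals that of M21 in 46 of the 69 members, so level and 3′ end can come from different models. Hist1h4d spans 393 bases in the table and 1138 in its M21 model, and Hist1h2ae 460 and 704. In Hist1h4d, Hist1h2ac and Hist1h1d the last hexamer lies 320, 309 and 197 bases before the model end. These are descriptions across genes, and no test was made of them.

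**Figure D1:**
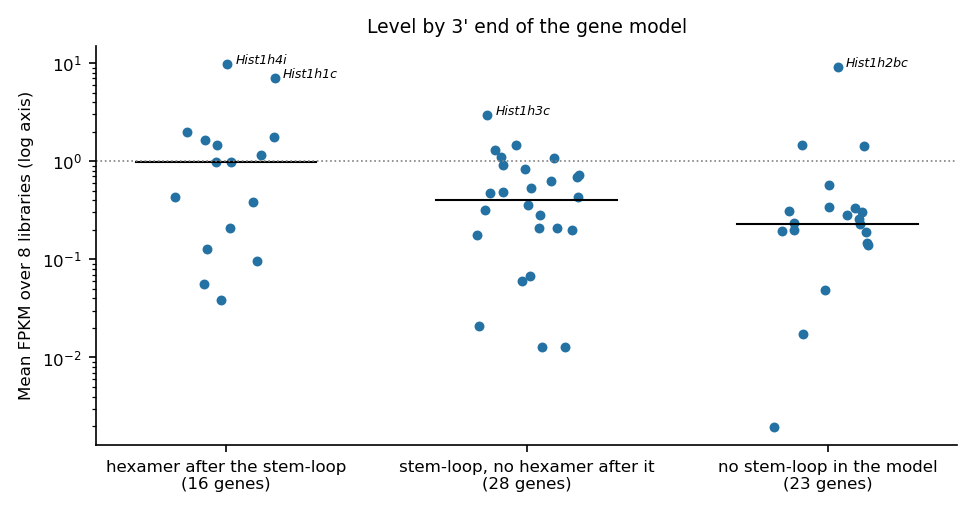
Mean FPKM over the 8 libraries (log axis) of 62 members by the 3′ end of their GENCODE M21 model, each point 1 gene and each line the median of the kind. The 5 members at or near 0 are not drawn but count in the medians, which are 0.979, 0.398 and 0.229 FPKM from left to right, and the dotted line is 1 FPKM.

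Histone messages were scarce in every library. The 69 genes summed to between 37.9 and 77.2 FPKM per library, which is 0.00800% to 0.0137% of all FPKM. The median member had a mean of 0.314 FPKM, 34 members were above 0 in all 8 libraries, and 4 were listed at 0 in all 8 (Hist1h2aa, Hist1h2ba, Hist1h2bq and Hist2h2aa2). Only 3 members had a mean of 5 FPKM or more, namely Hist1h4i at 9.85, Hist1h2bc at 9.09 and Hist1h1c at 7.05, and together they held 39.3% to 47.8% of the histone FPKM of a library.

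For genes with 1 exon the deposited FPKM could be turned back into fragments, since low values are whole multiples of what 1 fragment is worth at that gene's length. Of 259 such member values under 10 fragments, 97.7% were whole within 0.05 fragments. In 58 members all 8 values came out whole, and these summed to between 593 and 1187 fragments per library. The tolerance grew with the count, so the values of Hist1h1c and Hist1h4i and the largest values of Hist3h2a passed by the rule alone, as did values of 0. At a length of 500 bases 1 fragment was worth 0.0851 to 0.115 FPKM. The same step gave relative depths of 0.840 to 1.13 against WT replicate 1. Counting error alone is therefore large for most members: the 45 of these 58 with a mean under 1 FPKM had a median of 16 fragments over all 8 libraries.

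Whole-series checks bear on the labels. Dgcr8 stood at 22.9 and 21.9 FPKM in WT and at 7.89 and 8.50 in Dgcr8 KO, a difference of -1.35 in log2(FPKM + 1) with an adjusted p of 3.5e-05. Whether those reads lie outside the deleted part was not tested. In the siMbnl1/2 group Mbnl2 was lower than in Dgcr8 KO by limma (-1.01, adjusted p = 0.019) and Mbnl1 did not pass (-0.31, adjusted p = 0.158). All 10 embryonic stem cell markers were at 30.1 FPKM or more in every library. Of 12 fibroblast markers, 10 had a mean under 1 FPKM and none passed 3.76 in any library.

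The summed histone level was lower in Dgcr8 KO and in siMbnl1/2 than in the other groups. It was 74.4 ± 3.99 FPKM in WT (SD, n = 2), 43.0 ± 7.20 in Dgcr8 KO, 73.4 ± 0.906 in miR-294 and 50.3 ± 1.93 in siMbnl1/2. The 2 WT and 2 miR-294 libraries lay between 71.6 and 77.2 FPKM, and the 4 others between 37.9 and 51.7, so the ranges did not overlap. A sum of this kind was not tested, and in bulk RNA fewer cells in S phase and less histone RNA per cell cannot be told apart.

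**Figure D2:**
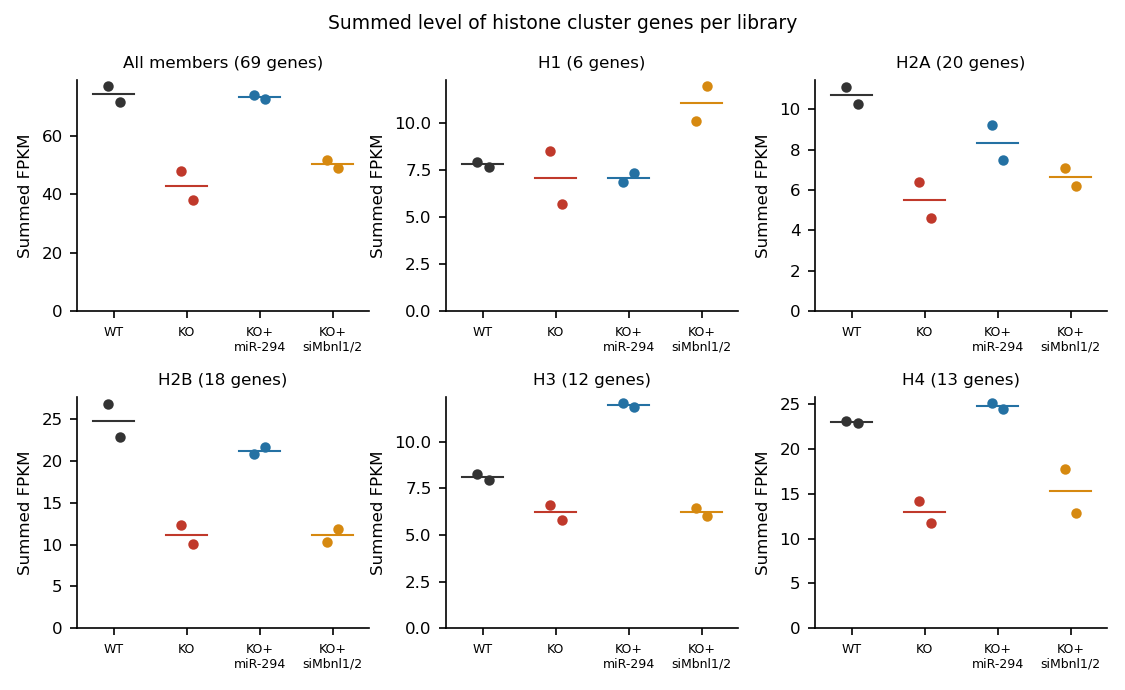
Summed FPKM of all 69 members and of each histone class in every library (points), with the group mean (lines). H2A, H2B, H3 and H4 were each higher in both miR-294 libraries than in both Dgcr8 KO libraries, whereas H1 overlapped between those groups and was highest in siMbnl1/2.

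The 5 classes differed in how they were spread over the groups. H2B gave means of 24.8 FPKM in WT, 11.2 in Dgcr8 KO, 21.2 in miR-294 and 11.1 in siMbnl1/2. H4 gave 23.0, 13.0, 24.8 and 15.3 FPKM in the same order. H2A gave 10.7, 5.51, 8.34 and 6.63 FPKM. H3 differed in shape, with 8.11 FPKM in WT, 6.22 in Dgcr8 KO and 6.25 in siMbnl1/2 but 11.96 in miR-294, above both WT libraries. H1 stood at 7.78, 7.08 and 7.07 FPKM in the first 3 groups and at 11.0 in siMbnl1/2. No p was computed for these sums.

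Gene by gene, the test was limma on log2(FPKM + 1) over 12786 entries with a mean of at least 1 FPKM, and a gene was called at a two-sided Benjamini-Hochberg adjusted p under 0.05. Of the 69 members 15 passed that filter and 54 did not. The filter sat amid a run of similar genes: Hist1h2ag (mean 1.10 FPKM) and Hist1h4n (1.08) lay just inside it, and Hist2h3c1 (0.983) and Hist1h4a (0.975) just outside. Log2 differences below are on the log2(FPKM + 1) scale, which understates the change of genes near 1 FPKM.

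In Dgcr8 KO against WT, 6 of the 15 tested members fell and none rose. Hist1h2bc, Hist3h2a, Hist1h2ae, Hist1h4k, Hist1h4i and Hist3h2ba were the 6, so they cover H2A, H2B and H4 but neither H1 nor H3. Over all tested entries 30.1% were called lower in this comparison, and the median difference was 0.00 against -0.45 for the 15 members. Both KO libraries were below both WT libraries in 9 of the 15, beside 41% of all tested entries. Fewer members were called when any WT or Dgcr8 KO library was left out, where fewer of all tested entries were called too. The median difference of the members stayed between -0.55 and -0.32 when any library was left out.

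After miR-294, 8 of the 15 were higher than in Dgcr8 KO and none was lower. These were Hist1h3c, Hist1h2ae, Hist1h2bc, Hist1h4i, Hist1h4b, Hist1h3g, Hist3h2a and Hist3h2ba, which cover all 4 core histones. Over all tested entries 22.9% were called higher and the median difference was -0.06, against 0.52 for the members. Both miR-294 libraries were above both KO libraries in 11 members, beside 35% of all tested entries. The count fell when any Dgcr8 KO or miR-294 library was left out, where fewer of all tested entries were called too. The median difference of the members stayed between 0.41 and 0.62 when any library was left out. This comparison and the one with WT share the Dgcr8 KO libraries.

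After siMbnl1/2 no member was called against Dgcr8 KO by limma, where 1.11% of all tested entries were called in either direction. At an unadjusted p under 0.05 there were 3 members, Hist1h1c in the higher direction and Hist1h4k and Hist1h3g in the lower. The share of all tested entries under that unadjusted p was not counted, so the 3 have no background beside them. The median difference of the 15 was 0.09, beside 0.04 for all tested entries. When any library was left out, the difference of Hist1h4i ran from -0.24 to 0.52 and that of Hist1h4k from -1.01 to -0.68.

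The treatments were also compared directly. Of the 15 members 7 were lower in siMbnl1/2 than in miR-294, where 21% of all tested entries were called lower, and 1, Hist1h1c, was higher, where 33% were. The median was -0.32 for the members and 0.10 for all tested entries. The count of 8 fell when any library was left out. The number of all tested entries called was lower in some of those fits and higher in others. The median difference of the members stayed between -0.53 and -0.32 in them. In miR-294 against WT, Hist1h3c and Hist1h3g were called higher and Hist3h2a lower, beside 11.8% and 14.7% of all tested entries in those directions. When any library was left out, the difference ran from 0.43 to 0.99 for Hist1h3c, from 0.38 to 0.56 for Hist1h3g and from -0.735 to -0.46 for Hist3h2a. Calls were lost in fits that left WT or miR-294 with 1 library, where fewer of all tested entries were called too.

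**Figure D3:**
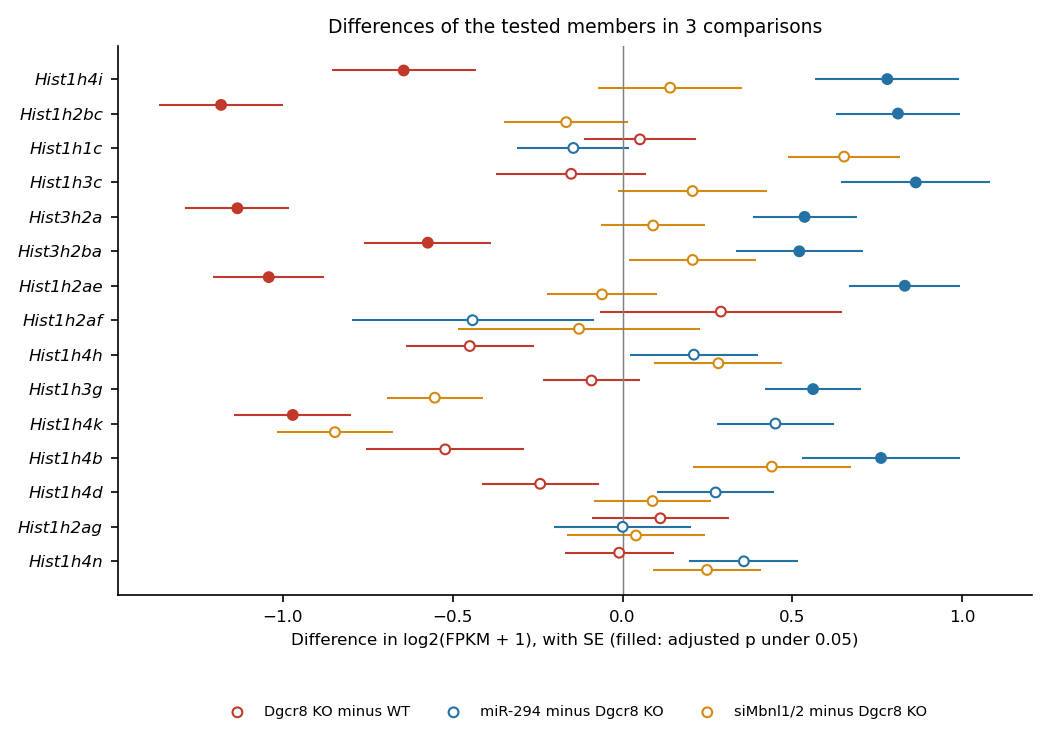
Difference in log2(FPKM + 1) of the 15 tested members in 3 comparisons, with its standard error from limma; filled points passed an adjusted p under 0.05. The filled red points (Dgcr8 KO minus WT) are all left of 0, the filled blue points (miR-294 minus Dgcr8 KO) all right of it, and none of the orange points (siMbnl1/2 minus Dgcr8 KO) is filled.

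Linker histone H1, which binds the DNA between nucleosomes, was represented mainly by 1 gene. Hist1h1c (ENSMUSG00000036181.2, chr13:23738808-23740367 of mm10, plus strand) was at 6.13 and 5.80 FPKM in WT, 7.38 and 5.21 in Dgcr8 KO, 5.27 and 5.80 in miR-294 and 9.09 and 11.7 in siMbnl1/2. The siMbnl1/2 libraries were above all 6 others, which lay between 5.21 and 7.38 FPKM. These values correspond to 385 and 558 fragments in siMbnl1/2 and to 204 to 321 in the other libraries. Against miR-294 the difference was 0.80 ± 0.16 (SE, adjusted p = 0.0052), and against Dgcr8 KO it was 0.65 ± 0.16 and did not pass (adjusted p = 0.103). In Dgcr8 KO minus WT it was 0.05 (adjusted p = 0.81).

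The other H1 genes were far lower, with few fragments in each library. Hist1h1d, next in level, was at 0.601 and 0.389 FPKM in WT and at 0.452 and 0.233 in Dgcr8 KO, 0.384 and 0.496 in miR-294 and 0.410 and 0.103 in siMbnl1/2. Hist1h1a gave 8 and 9 fragments in WT, 6 and 1 in Dgcr8 KO, 7 and 6 in miR-294 and 2 and 1 in siMbnl1/2. Neither was tested, and neither shared the high siMbnl1/2 values of Hist1h1c.

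H2A forms a dimer with H2B, and 4 of its 20 genes were tested. Hist3h2a (ENSMUSG00000078851.4, chr11:58954685-58956830, plus strand) was at 4.02 and 3.15 FPKM in WT, 1.21 and 0.958 in Dgcr8 KO, 1.78 and 2.28 in miR-294 and 1.05 and 1.40 in siMbnl1/2. No group overlapped with WT, and miR-294 lay between WT and the other knockout groups. It fell by 1.13 ± 0.15 in Dgcr8 KO (adjusted p = 0.00053), rose by 0.54 after miR-294 (adjusted p = 0.021) and remained lower in miR-294 than in WT, by -0.60 (adjusted p = 0.027). The call of miR-294 minus WT was lost without any one of the 4 libraries compared (adjusted p from 0.054 to 0.176), and that of miR-294 minus Dgcr8 KO without Dgcr8 KO replicate 2 (0.105) or miR-294 replicate 2 (0.132).

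Hist1h2ae (ENSMUSG00000069272.5, chr13:23570662-23571121, minus strand) repeated the pattern at a lower count. It was at 2.53 and 2.91 FPKM in WT, 0.575 and 1.07 in Dgcr8 KO, 1.97 and 2.47 in miR-294 and 0.843 and 0.627 in siMbnl1/2. In fragments these were 23 and 30, 5 and 9, 15 and 22, and 7 and 6. The difference was -1.04 ± 0.16 in Dgcr8 KO minus WT (adjusted p = 0.0011) and 0.83 ± 0.16 in miR-294 minus Dgcr8 KO (adjusted p = 0.0042), and both calls held under each alternative run. In siMbnl1/2 it differed from Dgcr8 KO by -0.06 (adjusted p = 0.89).

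The other H2A members tested did not follow. Hist1h2af was at 1.40 and 1.11 FPKM in WT, 2.66 and 1.07 in Dgcr8 KO, 1.87 and 0.432 in miR-294 and 1.71 and 1.34 in siMbnl1/2, so that the 2 libraries of a group differed as much as the groups. It held the largest positive difference in Dgcr8 KO minus WT, 0.29 with an adjusted p of 0.51. Hist1h2ag ranged from 0.767 to 1.65 FPKM with overlap between Dgcr8 KO and each of the other groups.

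The region before the start of Hist3h2a and Hist1h2ae is shown because both H2A genes were called lower in Dgcr8 KO and higher after miR-294. The windows run from 250 bases before to 50 after the RefSeq start (build GRCm38.p6), 5′ to 3′ on the gene's strand. Capitals mark CCAAT and ATTTGCAT, the octamer bound by Oct factors, on either strand.
Hist3h2a, chr11:58954435-58954734, plus strand: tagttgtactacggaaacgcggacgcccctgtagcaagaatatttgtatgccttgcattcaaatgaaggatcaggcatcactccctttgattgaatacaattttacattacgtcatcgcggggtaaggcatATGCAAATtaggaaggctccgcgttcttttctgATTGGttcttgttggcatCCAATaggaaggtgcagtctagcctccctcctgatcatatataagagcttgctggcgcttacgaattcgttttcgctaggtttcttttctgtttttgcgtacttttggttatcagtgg
Hist1h2ae, chr13:23571171-23571470, minus strand: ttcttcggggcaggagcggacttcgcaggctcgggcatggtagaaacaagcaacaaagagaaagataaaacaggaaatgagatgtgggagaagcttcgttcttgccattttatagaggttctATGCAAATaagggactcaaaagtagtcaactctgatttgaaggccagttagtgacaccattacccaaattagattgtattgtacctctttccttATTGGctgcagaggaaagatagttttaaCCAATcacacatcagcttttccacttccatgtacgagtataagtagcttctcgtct
The far end of the second window overlaps the start of Hist1h2bg, an H2B gene on the other strand that begins at 23571408.

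Promoter windows were found for 62 of the 69 members, with RefSeq's newer symbols matched through synonyms. ATTTGCAT on either strand was in 7 of 18 H2A windows and 6 of 16 H2B windows, in none of the 28 windows of H1, H3 and H4, and in 1.74% of 32851 windows of all genes. CCAAT on either strand was in every H1, H2A, H2B and H3 window, in 3 of 12 H4 windows and in 37.4% of all windows. TATAAA on the gene's strand was in 48.4% of the member windows and 8.32% of all windows. Hist1h2bg itself, named for its place beside Hist1h2ae and after its values were seen, was at 1.24 and 0.916 FPKM in WT, 0.542 and 0.672 in Dgcr8 KO, 0.619 and 0.9498 in miR-294 and 0.340 and 0.296 in siMbnl1/2. It was below the filter and not tested.

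H2B, the partner in that dimer, rested on Hist1h2bc. This gene (ENSMUSG00000018102.4, chr13:23684199-23692488, plus strand) has 2 exons in GENCODE M21, so its fragments could not be recovered. It was at 15.9 and 13.0 FPKM in WT, 6.89 and 4.84 in Dgcr8 KO, 10.3 and 11.5 in miR-294 and 4.33 and 5.87 in siMbnl1/2. WT was above every other group, miR-294 came next, and Dgcr8 KO and siMbnl1/2 overlapped. It fell by 1.18 ± 0.18 in Dgcr8 KO (adjusted p = 0.0010), the largest decrease of the 15, and rose by 0.81 ± 0.18 after miR-294 (adjusted p = 0.0078). The rise lost its call without miR-294 replicate 2 (adjusted p = 0.052).

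Hist3h2ba (ENSMUSG00000056895.4, chr11:58948920-58949533, plus strand), the neighbour of Hist3h2a, was at 2.48 and 1.95 FPKM in WT, 1.25 and 1.06 in Dgcr8 KO, 2.51 and 1.72 in miR-294 and 1.15 and 1.88 in siMbnl1/2. WT and miR-294 overlapped, and so did Dgcr8 KO and siMbnl1/2. The differences were -0.57 in Dgcr8 KO minus WT (adjusted p = 0.031) and 0.52 in miR-294 minus Dgcr8 KO (adjusted p = 0.049). The first call was lost without any one of the WT or Dgcr8 KO libraries (adjusted p from 0.050 to 0.161). The second was lost under 8 of 15 alternatives, among them the replicate block (0.074) and the fits without either WT library, either Dgcr8 KO library or miR-294 replicate 1 (0.064 to 0.263). Hist1h2bj, the third H2B gene in level and just under the filter, was at 0.869 and 1.25 FPKM in WT, 0.683 and 0.353 in Dgcr8 KO, 1.43 and 1.11 in miR-294 and 1.07 and 0.517 in siMbnl1/2.

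Of the 12 H3 genes, whose protein pairs with H4 in the nucleosome core, 2 were tested. Hist1h3c (ENSMUSG00000069310.3, chr13:23745013-23745501, minus strand) was at 3.19 and 1.85 FPKM in WT, 2.71 and 1.61 in Dgcr8 KO, 4.75 and 4.56 in miR-294 and 2.83 and 2.37 in siMbnl1/2. Both miR-294 libraries were above the 6 others, and those 6 overlapped. It rose by 0.86 ± 0.22 against Dgcr8 KO (adjusted p = 0.013) and was not called between Dgcr8 KO and WT (-0.15, adjusted p = 0.58). Against WT the rise was 0.71 (adjusted p = 0.049). The first rise lost its call without Dgcr8 KO replicate 2 or either miR-294 library (adjusted p from 0.055 to 0.078), and the rise against WT without WT replicate 2 or either miR-294 library (0.156 to 0.258).

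Hist1h3g (ENSMUSG00000099517.1, chr13:23535434-23535860, plus strand) showed the same high group and a low one. It was at 1.62 and 1.32 FPKM in WT, 1.57 and 1.08 in Dgcr8 KO, 2.40 and 2.42 in miR-294 and 0.686 and 0.475 in siMbnl1/2. The siMbnl1/2 libraries held 5 and 4 fragments, below all others, which held 8 to 19. The difference was 0.56 ± 0.14 in miR-294 minus Dgcr8 KO (adjusted p = 0.013), -1.11 ± 0.14 in siMbnl1/2 minus miR-294 (adjusted p = 0.00056) and -0.55 ± 0.14 in siMbnl1/2 minus Dgcr8 KO, which did not pass (adjusted p = 0.107). The rise after miR-294 lost its call without Dgcr8 KO replicate 2 or either miR-294 library (adjusted p from 0.060 to 0.071). Hist2h3c1, the third H3 gene in level, was listed at 0.001075 FPKM in WT replicate 1 and at 0.863 to 1.32 in the other 7 libraries.

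H4 had the most tested genes, 6 of 13. Hist1h4i (ENSMUSG00000060639.5, chr13:22040636-22041362, minus strand), the most abundant histone gene of the table, was at 11.6 and 11.5 FPKM in WT, 7.23 and 6.79 in Dgcr8 KO, 13.5 and 12.045 in miR-294 and 10.4 and 5.80 in siMbnl1/2. WT and miR-294 were above Dgcr8 KO without overlap, and the siMbnl1/2 libraries lay on either side of the Dgcr8 KO values. It fell by 0.64 ± 0.21 in Dgcr8 KO (adjusted p = 0.031) and rose by 0.78 ± 0.21 after miR-294 (adjusted p = 0.017). Each of these calls was lost without any one of the 4 libraries it compares, with adjusted p from 0.086 to 0.120 for the fall and from 0.052 to 0.090 for the rise. Against miR-294, siMbnl1/2 was lower by -0.64 (adjusted p = 0.036), a call lost in 7 of the 8 fits that left out a library.

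Hist1h4k (ENSMUSG00000064288.4, chr13:21750194-21750505, minus strand) was the lowest of the 15 tested members after siMbnl1/2. It was at 2.76 and 3.03 FPKM in WT, 1.23 and 0.770 in Dgcr8 KO, 2.02 and 1.44 in miR-294, and at 0.223 in siMbnl1/2 replicate 2, with replicate 1 listed at 0. The difference was -0.97 ± 0.17 in Dgcr8 KO minus WT (adjusted p = 0.0020). In siMbnl1/2 minus Dgcr8 KO it was -0.85 ± 0.17 and did not pass (adjusted p = 0.063, and 0.039 without siMbnl1/2 replicate 2), and in siMbnl1/2 minus miR-294 it was -1.30 ± 0.17 (adjusted p = 0.00067). Of its possible 50-base stretches 71.5% also occur in another histone gene of the set, so reads from copies may be divided among them.

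Among the other H4 genes, Hist1h4b rose after miR-294 by 0.76 ± 0.23 (adjusted p = 0.027), from 0.895 and 0.464 FPKM to 2.06 and 1.60. WT held 0.990 and 1.87 FPKM of it, and the difference to Dgcr8 KO did not pass (-0.52, adjusted p = 0.087). The rise lost its call without Dgcr8 KO replicate 2 or either miR-294 library (adjusted p from 0.059 to 0.145). Hist1h4h was at 2.41 and 1.30 FPKM in WT, 1.21 and 0.908 in Dgcr8 KO, 1.26 and 1.498 in miR-294 and 1.493 and 1.498 in siMbnl1/2, and it was not called in any comparison. Hist1h4n, and Hist1h4d, which is named here outside the rule, were not called in any comparison either. Their values ranged from 0.801 to 1.76 and from 0.787 to 1.63 FPKM.

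**Figure D4:**
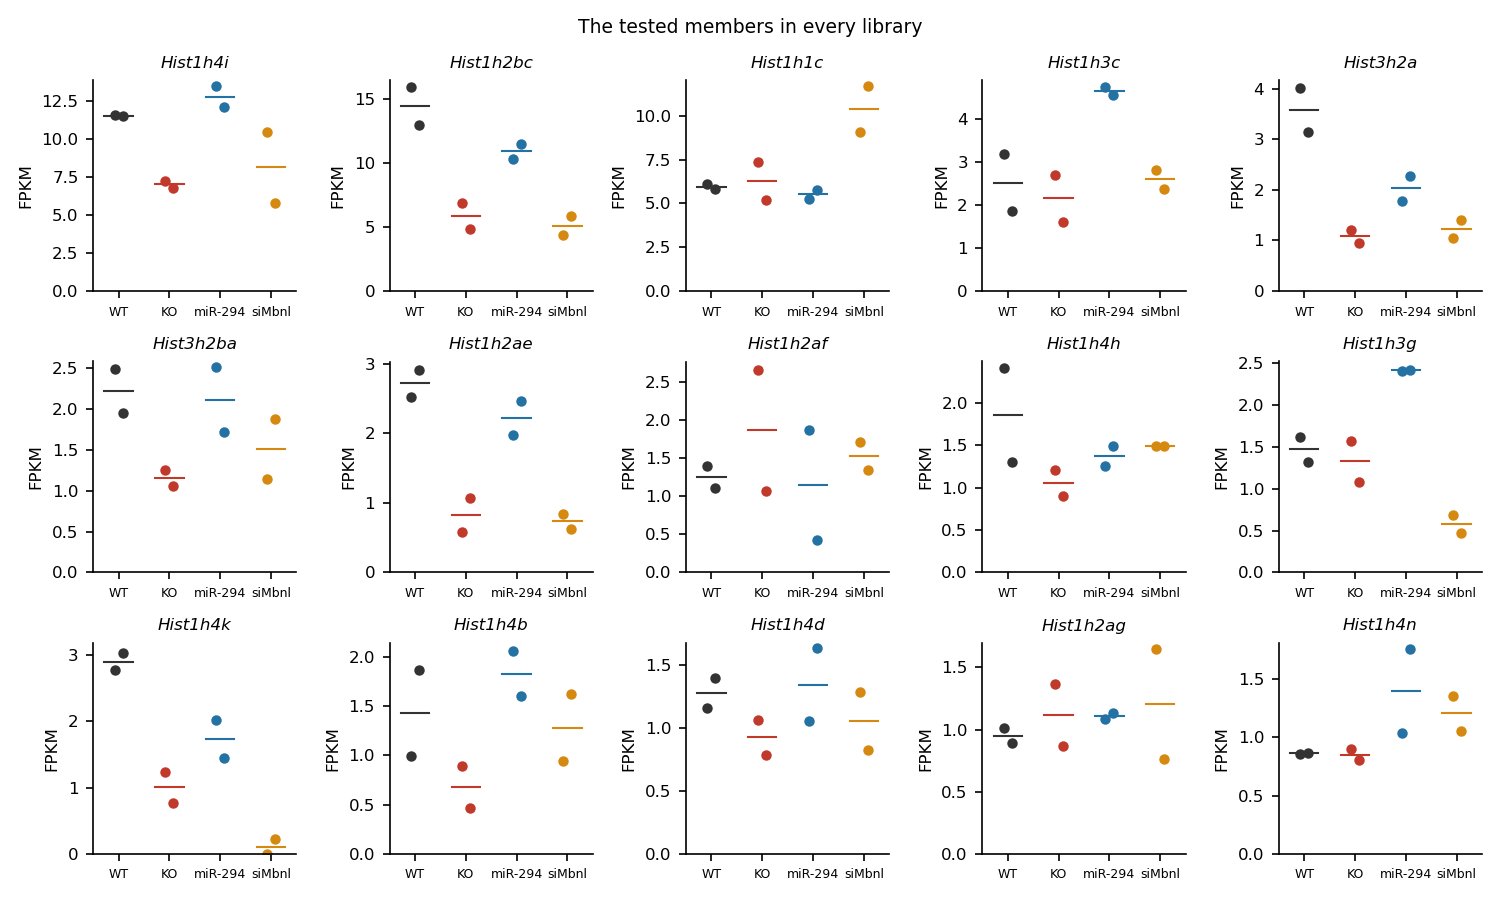
FPKM of each of the 15 tested members in the 8 libraries (points), with the group mean (lines), each panel with its own axis from 0. Hist1h2bc, Hist3h2a and Hist1h2ae share a low level in Dgcr8 KO and siMbnl1/2, Hist1h3c and Hist1h3g are highest in miR-294, and Hist1h1c is highest in siMbnl1/2.

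Near-identical coding sequences limit single genes of these families. The share of a model's 50-base stretches found in another member had a median of 73.2% in H2A, 46.7% in H2B, 57.2% in H3, 39.5% in H4 and 1.10% in H1. Among members discussed above it was 0.00% for Hist3h2ba, 2.00% for Hist3h2a, 8.54% for Hist1h1c, 28.9% for Hist1h4i and 29.4% for Hist1h2bc. It was 43.2% for Hist1h2ae, 47% for Hist1h3c, 54.1% for Hist1h3g and 54.6% for Hist1h4b, which were all called after miR-294, and 79.7% for Hist1h2af and 78.9% for Hist1h2ag. The read length and the handling of reads with several matches are not given in the sources used here. Values of genes with high shares are uncertain. Sums over a class are less exposed to a division of reads within the class, but they would still lack any reads left out for matching several genes.

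As a sum the 54 untested members were also lowest in Dgcr8 KO. They held 19.2 and 19.6 FPKM in WT, 9.94 and 9.60 in Dgcr8 KO, 21.1 and 20.4 in miR-294 and 12.8 and 11.5 in siMbnl1/2. WT and miR-294 were close to each other, Dgcr8 KO was lowest, and siMbnl1/2 lay above it without overlap. Of the 50 that were above 0 in some library, 24 were lower in both KO than in both WT libraries and 2 were higher, where 19.2% and 20.3% of all entries with a mean above 0 and under 1 FPKM were. After miR-294, 23 were higher and 1 lower than in Dgcr8 KO without overlap, where 18.4% and 16.7% were. In siMbnl1/2 against Dgcr8 KO 6 were higher (background 19%) and 2 lower (background 9.93%), and against miR-294 23 were lower (background 15.7%) and 0 higher (background 19.3%). These counts have no p, since the genes of a library are not replicates. Hist1h4a, just under the filter, gave 14 and 24 fragments in WT, 3 and 5 in Dgcr8 KO, 14 and 17 in miR-294 and 7 and 6 in siMbnl1/2.

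In fragments, the 45 untested members with whole values gave 245 and 281 in WT, 121 and 118 in Dgcr8 KO, 203 and 225 in miR-294 and 143 and 140 in siMbnl1/2. Scaled to the depth of WT replicate 1 these became 245 and 249, 126 and 127, 242 and 229, and 156 and 133. The exact Poisson 95% intervals, which cover counting error only, ran from 105 to 152 over the Dgcr8 KO libraries and from 199.8 to 279.5 over the WT and miR-294 libraries. Those intervals did not meet. The intervals of siMbnl1/2, from 112 to 184, overlapped with those of Dgcr8 KO. Over all 58 members with whole values the siMbnl1/2 libraries gave 959 and 974 at that depth, against 796 and 639 in Dgcr8 KO, and Hist1h1c alone supplied 385 and 558 of their unscaled 880 and 1025 fragments.

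**Figure D5:**
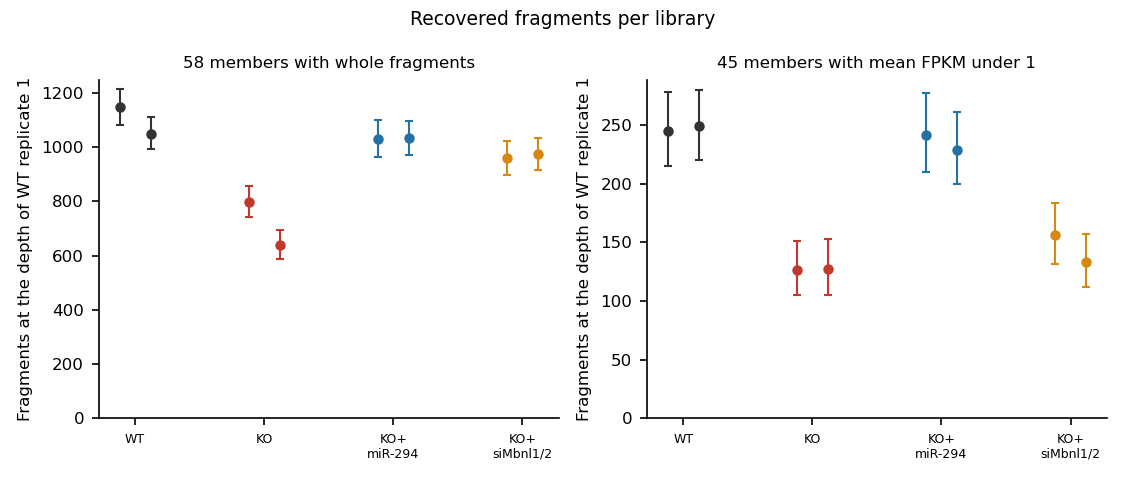
Fragments recovered from FPKM, scaled to the depth of WT replicate 1, for the 58 members with whole values (left) and the 45 of them with a mean under 1 FPKM (right); bars are exact Poisson 95% intervals. On the right the Dgcr8 KO libraries (126 and 127) lie below WT and miR-294 (229 to 249), with siMbnl1/2 at 156 and 133.

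By cluster, the Hist1 genes followed the total, with 65.8, 38.3, 66.3 and 45.6 FPKM in WT, Dgcr8 KO, miR-294 and siMbnl1/2. The Hist3 pair gave 5.81, 2.24, 4.15 and 2.74 FPKM. The 10 Hist2 genes stood at 2.80, 2.47, 2.81 and 1.94 FPKM with WT libraries of 1.62 and 3.98, so no difference exceeded the spread within WT. Hist4h4 did not pass 0.0804 FPKM in any library.

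The machinery that makes and handles histone mRNA was examined from a list of 26 genes, 25 of them in the table and tested. Of the 25, 15 fell and 1 rose in Dgcr8 KO, beside 30.1% and 29.6% of all tested entries, and 11 rose and 3 fell after miR-294, beside 22.9% and 29.2%. Those 3 became 1 without Dgcr8 KO replicate 1 or miR-294 replicate 1 and 0 without miR-294 replicate 2. The median differences were -0.42 and 0.21. Slbp, which binds the stem-loop, was at 69.5 and 70.4 FPKM in WT and between 46.3 and 51.9 in the other 6 libraries. It fell by 0.56 ± 0.06 in Dgcr8 KO (adjusted p = 0.00021), and was not called in miR-294 minus Dgcr8 KO (0.09, adjusted p = 0.27).

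Snrpg and Snrpd3, Sm proteins that spliceosomal particles share with U7, fell by 1.13 ± 0.06 and 0.91 ± 0.07 in Dgcr8 KO, and after miR-294 Srrt, a cap-complex partner, rose by 0.79 ± 0.08 and Snrpd3 by 0.76 ± 0.07. Ctif, a factor in the translation of cap-bound mRNA, rose by 0.88 in Dgcr8 KO. Among the factors particular to histone mRNA the calls were mixed. Slbp fell, as given above, and so did Zfp473, a protein of the U7 complex that is named here outside the rule, from 12.03 and 11.7 FPKM in WT to 8.32 and 8.14 in Dgcr8 KO (-0.48, adjusted p = 0.0078), and it rose to 13.1 and 11.7 after miR-294 (0.54, adjusted p = 0.0059). Lsm10 (-0.25, adjusted p = 0.059), Lsm11 (0.22, adjusted p = 0.168), Casp8ap2 (-0.17, adjusted p = 0.21) and the exonuclease Eri1 (-0.27, adjusted p = 0.064) were not called in Dgcr8 KO minus WT. None of the 25 was called by limma in siMbnl1/2 minus Dgcr8 KO, where 1.11% of all tested entries were. At an unadjusted p under 0.05 there were 4, and the share of all entries at that p was not counted.

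Regulators of histone gene transcription were split. Npat, the coactivator of histone genes, was at 11.0 and 11.9 FPKM in WT and 11.5 and 12.9 in Dgcr8 KO, and Hinfp, which acts on H4 promoters, at 10.6 and 11.4 and at 11.0 and 8.83. Neither was called in that comparison. Ccne1, the cyclin whose kinase activates Npat, fell by 1.23 ± 0.07 in Dgcr8 KO and rose by 1.19 ± 0.07 after miR-294. Ccne2, the other E cyclin, went the other way in Dgcr8 KO, from 12.5 and 14.5 FPKM in WT to 23.2 and 32.5 (0.98 ± 0.15, adjusted p = 0.0011), and was not called after miR-294 (-0.20, adjusted p = 0.30). E2f1, a transcription factor of S phase genes, rose by 0.64 ± 0.13 in Dgcr8 KO and fell by 0.57 ± 0.13 after miR-294. Ccne2 and E2f1 are named outside the rule, after their values were seen. Cdkn1a, an inhibitor of that kinase, rose by 1.22 ± 0.08, fell by 1.78 ± 0.08 after miR-294 and rose by 0.84 ± 0.08 after siMbnl1/2 (adjusted p = 0.012, and 0.066 without Dgcr8 KO replicate 2). Of the 10 genes of this list 3 rose and 1 fell in Dgcr8 KO, where 29.6% and 30.1% of all tested entries did, and 1 rose and 3 fell after miR-294, where 22.9% and 29.2% did. The 3 rises and the 3 falls are thus near the shares over all entries.

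Most S phase genes fell in Dgcr8 KO. Of 20 S phase genes, Slbp among them, 14 fell and 2 rose in Dgcr8 KO (30.1% and 29.6% of all tested entries), and 10 rose and 1 fell after miR-294 (22.9% and 29.2% of all). Fewer than 14 fell when any WT or Dgcr8 KO library was left out. Fewer than 10 rose without Dgcr8 KO replicate 2 or either miR-294 library. In those fits fewer of all tested entries were called too. After siMbnl1/2 none was called by limma (1.11% of all). An unadjusted p under 0.05 was found for 8, and the share of all entries at that p was not counted. Gins2 and Mcm5, of the replicative helicase, fell by 1.27 and 1.19, and Mcm5 and Mcm2 rose by 0.68 and 0.58 after miR-294. Of 21 chaperones 14 fell and 1 rose in Dgcr8 KO, and 9 rose and 2 fell after miR-294, beside the same shares. The 14 became 9 without WT replicate 1 and 7 without WT replicate 2, and the 9 became 5 without Dgcr8 KO replicate 1, 4 without miR-294 replicate 1 and 3 without miR-294 replicate 2. Nasp, the H1 and H3 chaperone, went from 390 and 382 FPKM in WT to 200.4 and 218 in Dgcr8 KO and 397 and 403 after miR-294, while Ubn1, of the complex that deposits H3.3, rose by 0.68 and fell by 0.68.

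Replication-independent histone variants, whose mRNAs are mostly polyadenylated though H2afx also yields a stem-loop form, were far more abundant, at 1575 to 2353 summed FPKM per library. Of 11 tested, 7 fell and 2 rose in Dgcr8 KO, where 30.1% and 29.6% of all tested entries did, and 5 rose and 2 fell after miR-294, where 22.9% and 29.2% did. The 7 became 4 without WT replicate 1, and the 5 became 3 without Dgcr8 KO replicate 2 or either miR-294 library. H2afj, an H2A variant, fell by 1.45 ± 0.13 and the macroH2A gene H2afy rose by 1.05 ± 0.13, and after miR-294 H2afy2 and H2afy fell by 1.14 and 1.04.

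Other RNAs that lack a poly(A) tail in some or all of their forms were examined as a list. Of 12 tested, 3 fell (Rpph1, Snora73a and Snora73b) and 1 rose (Neat1) in Dgcr8 KO, which is not above the 30.1% and 29.6% of all tested entries. After miR-294, 6 rose and 2 fell (Neat1 and Malat1), beside 22.9% and 29.2% of all, and without Dgcr8 KO replicate 2 the 6 became 3 and the 2 became 1. Rpph1, the RNA of ribonuclease P, was at 5.70 and 6.53 FPKM in WT, 1.87 and 1.46 in Dgcr8 KO, 4.10 and 4.57 in miR-294 and 3.25 and 2.96 in siMbnl1/2. The fall was 1.42 ± 0.12 and the rise 1.00 ± 0.12, and the call after siMbnl1/2 was missed (0.63, adjusted p = 0.058). Neat1 fell by 1.22 after miR-294. Rmrp, the RNA of ribonuclease MRP, was at 1.76 FPKM in Dgcr8 KO replicate 1, listed at 0 in replicate 2 and at 2.91 and 3.78 FPKM in miR-294. Its difference of 1.38 (adjusted p = 0.045) became 0.65 (adjusted p = 0.123) without Dgcr8 KO replicate 2, and it was not called without either miR-294 library (adjusted p = 0.111 and 0.175). Whether a differing carry-over of untailed RNA between libraries has a part in the histone values was not tested.

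The fibroblast markers, given because the labels name feeders as a culture surface, summed to 5.91 and 5.17 FPKM in WT, 5.29 and 4.39 in Dgcr8 KO, 6.68 and 6.49 in miR-294 and 5.58 and 6.49 in siMbnl1/2. Only Thy1 and Col5a1 reached a mean of 1 FPKM. Col1a1 was at 0.4998 and 0.307 FPKM in WT and at most 0.215 in the other groups. Col1a2 was at 0.246 and 0.4999 FPKM in WT and at most 0.0275 in the other groups. Pdgfrb was highest in siMbnl1/2, at 0.682 and 0.765 FPKM, and Fbn1 lay between 0.6495 and 0.917 in all libraries. Lum and Fap were at 0 in both WT libraries, Postn was at 0 in the other 3 groups, and Dcn did not pass 0.0626. Thy1 rose after miR-294 by 0.86 ± 0.13. The part of such cells in the histone values was not tested.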

How the data were processed

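The deposited table holds FPKM per gene and library, made by the authors with STAR 2.5.0 and Cufflinks 2.2.1 on mm10, per the submitters' processing notes; the annotation release is not given in the sources used here. Columns were matched to samples by the names in the labels. FPKM was used as deposited, as log2(FPKM + 1). Entries with a mean of at least 1 FPKM (12786) were fitted with 4 group means over all 8 libraries by limma 3.58.1 (R 4.3.3, trend and robust variance), in 5 comparisons, with Benjamini-Hochberg adjustment. The analysis was tested on simulated data. Because FPKM is scaled within a library, a gain of some transcripts lowers the rest.

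Fragments were recovered from the FPKM of 1-exon models by a linear fit of the value of 1 fragment on length, with no count test. Models and loci were compared with GENCODE M21. Overlapping entries were found for 25 members, 5 of them tested, none of these entries above a mean of 0.341 FPKM.

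Members, lists and comparisons were chosen with earlier results of these data known. Named members are the 3 highest of each class, the 2 largest increases and decreases of each comparison and the 2 on each side of the filter; named list genes are 7 chosen factors and the 2 most changed called genes of each list. The 16 alternatives (other pseudocount, filter, scaling, fit, and each library left out) are in the closing section.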

Additional observations from a re-analysis of the deposited data

How the results depend on the processing

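The count of members called and their median difference were recomputed under 16 alternatives in 5 comparisons. In Dgcr8 KO minus WT the count of 6 became 11 with no filter (65 members) and 2 at a minimum of 5 FPKM (3 members), and the median of -0.45 became -0.71 with a pseudocount of 0.1, -0.20 with no filter, -0.64 at 5 FPKM and -0.59 with quantile normalization. In miR-294 minus Dgcr8 KO the count of 8 became 2 at 5 FPKM, and the median of 0.52 became 0.80, 0.22, 0.78 and 0.65 under those same settings in order. In siMbnl1/2 minus Dgcr8 KO 1 member was called with quantile normalization. In siMbnl1/2 minus miR-294 the count of 8 became 3 at 5 FPKM, and the median of -0.32 became -0.52, -0.11, -0.64 and -0.54. In miR-294 minus WT the balance of 2 higher and 1 lower turned with a pseudocount of 0.1 (1 called, lower), with no filter (3 called, 2 lower) and with the libraries of that comparison alone (5 called, 3 lower), and 0 were called at 5 FPKM. The causes were not tested, except that the 5 FPKM filter leaves 3 members. Over all entries, Dgcr8 KO minus WT had 7641 calls in either direction as reported. It had 8178 of about 28010 with no filter and 5828 of about 8970 at 5 FPKM. At 5 FPKM miR-294 minus Dgcr8 KO had 5138, siMbnl1/2 minus miR-294 5191 and miR-294 minus WT 2572. With quantile normalization siMbnl1/2 minus Dgcr8 KO had 205. For miR-294 minus WT the number was 3543 with a pseudocount of 0.1, 2825 with no filter and 6311 with its libraries alone.

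Leaving out each library in turn, the counts ran from 4 to 6, 2 to 9, 0 to 2, 5 to 7 and 0 to 4, with the comparisons in the order used above. The medians ran from -0.55 to -0.32, 0.41 to 0.62, 0.0018 to 0.22, -0.53 to -0.32 and -0.13 to 0.096. Where a group was left with 1 library, it was assumed to vary like the others. The number of all entries called also moved in those fits, though not always in the same direction as the count of members. Whether shifts in a count are particular to the members or lists was not tested. With the replicate number as a block, 6, 7, 0, 7 and 2 members were called. Differences between replicates 1 and 2 correlated by -0.05 to 0.19 between groups across genes, the highest for WT with Dgcr8 KO. Such weak correlations show no clear pairing by replicate number and cannot exclude one. Leaving out libraries for the gene lists, Rmrp and Cdkn1a was chosen after seeing the data.

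For single members 1045 values kept their side of the threshold, 76 lost a call and 19 gained one, and no called difference turned direction under these alternatives. Quantile normalization moved the median of all genes in siMbnl1/2 minus miR-294 from 0.10 to -0.02. Median-of-ratios scaling moved the share of higher among all calls from 61.1% to 50.1% there, from 78.2% to 56.4% in siMbnl1/2 minus Dgcr8 KO and from 44.5% to 56.8% in miR-294 minus WT. Few fragments per gene limit what the 54 untested members can show singly.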
